A study of Drosophila montana with 23 samples.

Results

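Whole females of Drosophila montana that had mature ovaries after a winter in diapause (250D) were compared with females that had mature ovaries in summer and had never been in diapause (50ND), to see how far the transcripts of the 2 kinds of egg-producing female still differed. The comparison rests on 6 of the 23 arrays of the series, 3 of 250D and 3 of 50ND, chosen by their labels, and on all 218 genes read from the array, since 1 further gene of its list had no probe. All females came from strain 175OJ8, a line founded by 1 wild-caught female, and the RNA on an array was pooled from 2 females kept in a programmed climate chamber. The 250D females entered the chamber in late summer (short-day) conditions, spent the winter in darkness and cold in diapause, and were taken at 250 days of age in spring, after diapause had ended. The 50ND females entered in early summer (long-day) conditions and were taken at 50 days of age, at full vitellogenesis. Age, season, winter and past diapause all differ between the groups, so their parts in any difference cannot be told apart. The line is a single genetic background, and whole-body RNA cannot tell fewer cells of a type from less RNA per cell.

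Reproductive diapause is an arrest of egg development that young northern females enter when days shorten. Ovaries then stay without yolk through the winter, and egg production starts in spring. A mature fly ovary holds nurse cells, which fill the egg with maternal RNA and with small heat shock proteins. No yolk protein or chorion gene was on the array, so mature ovaries could not be checked by their defining transcripts, and Fmr1, Histone_H3.3A and Pp1-87B stood in for maternal RNA. All 11 photoreceptor markers, both muscle markers, the gut marker and the 3 maternal markers were well above background on all 6 arrays, and so were 6 of the 7 neuron markers (para was not on any of them).

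The values below are log2 intensities of the brightest probe of a gene after quantile normalization, which gives every array the same distribution of values. The test was limma on all 23 arrays, in which the 8 groups share 1 spread per gene, with p adjusted over the 218 genes. Calls required a difference of 2-fold or more besides an adjusted p below 0.05. Of the 14800 gene spots, 68.2% to 77.4% were well above background on the 250D arrays and 65.1% to 68.2% on the 50ND arrays, and the median intensity was 30.3 to 44.2 in 250D and 34.3 to 43.1 in 50ND. The number of arrays limits the precision. One array of another group, 7ND replicate c, stood apart, with 98.5% of its spots above background, a median intensity of 530 and a spike-in R2 of 0.660, and it enters the shared spread. The median standard error of a log2 fold change was 0.413 with it and 0.264 without it, so the counts of calls are given for both fits. In the fit without it, every gene other than ple and Clk had an adjusted p of 0.0558 or more. The scale also matters. The median log2 fold change of all genes was -0.05 here but -0.88 when arrays were scaled by their spike-in probes, so higher and lower below are relative to the other genes on the array.

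By group means, the post-diapause females were closest to 50ND among the 7 other groups of the series. The mean profiles of 250D and 50ND differed by a root mean square of 0.46 log2 over the 218 genes. The value was 1.02 between 250D and 150ND, the non-diapausing females of winter, which also held mature ovaries. It was 1.17 to 1.37 between 250D and the other groups, which are all diapausing stages and 7ND. With the outlying replicate c set aside, 7ND replicate a, from females at early vitellogenesis, lay 0.566 to 0.601 from the 250D arrays, within the range of 0.491 to 0.828 of the 50ND arrays. Within 250D, replicates a and b lay 0.403 apart, but replicate c lay 0.708 and 0.667 from them, about as far as from the 50ND arrays (0.669 to 0.828). The 50ND arrays lay 0.300 to 0.419 apart.

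**Figure D1:**
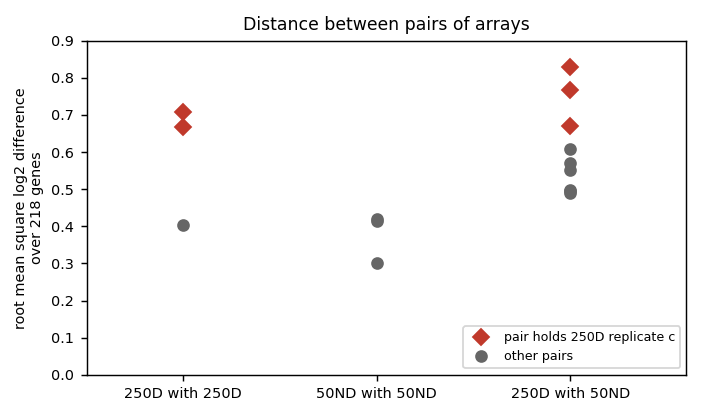
Root mean square log2 difference over 218 genes (y axis) for each pair of arrays within 250D, within 50ND and between them (x axis). Pairs that hold 250D replicate c (red diamonds) run between 0.667 and 0.828 and lie above all other pairs.

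No gene passed the test in the fit over all 23 arrays. Of 218 genes, 0 were called higher in 250D and 0 lower (0% of genes tested), the smallest adjusted p was 0.125, and 14 genes (6.42%) had an unadjusted p under 0.05 in limma. With 7ND replicate c left out, 2 genes were called (0.917%), both higher in 250D, and 43 genes (19.7%) had an unadjusted p under 0.05, 20 higher (9.17%) and 23 lower (10.6%). These 2 genes were ple and Clk. The authors' own normalized values also gave 2 calls, again ple and Clk. In 10 genes (4.59%) the group means were at least 2-fold apart, 9 of them higher in 250D (4.13%) and 1 lower (0.459%). The groups did not overlap in 76 genes (34.9%). The 3 arrays of 250D lay wholly above the 3 of 50ND in 32 genes (14.7%) and wholly below in 44 genes (20.2%).

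**Figure D2:**
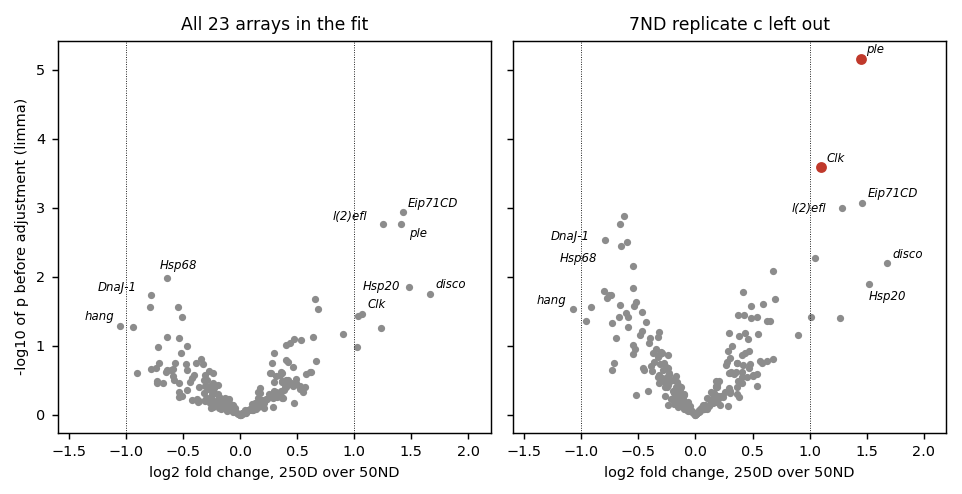
Log2 fold change of 250D over 50ND (x axis) against -log10 of the unadjusted limma p (y axis) for 218 genes, with all 23 arrays in the fit on the left and with 7ND replicate c left out on the right. Red points are called genes, of which there are 0 on the left and 2 (ple and Clk) on the right, and dotted lines mark a 2-fold difference.

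ple encodes tyrosine hydroxylase, which makes the first and rate-limiting step of dopamine synthesis and also serves the hardening of cuticle. Its log2 intensity was 7.95, 8.03 and 8.52 in 250D replicates a, b and c, against 6.81, 6.74 and 6.71 in the 50ND replicates. Every 250D array stood above every 50ND array, and the 50ND arrays hardly varied (SD 0.052, n = 3). This made a log2 fold change of 1.41 with a standard error of 0.39 (limma adjusted p = 0.125), a 2.67-fold higher mean in 250D, and the adjusted p was 0.00151 with 7ND replicate c left out. On each of the 3 slides, which held 1 array of either group, 250D was higher, by 1.22, 1.78 and 1.24 log2. The probe that carried this value was the only one of the 14 ple probes above background on all 6 arrays. The other 13 probes had differences of 0.25 to 0.85 log2, all higher in 250D.

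Clk, the transcription factor that switches on per and tim in the circadian clock, had 7.28, 7.38 and 6.64 in 250D and 6.02, 6.20 and 5.88 in 50ND. The groups did not overlap, with 250D replicate c nearest to 50ND. Clk differed by 1.07 log2 with a standard error of 0.47 (adjusted p = 0.602, and 0.0282 with 7ND replicate c left out), and the within-slide differences were 1.36, 0.44 and 1.41. The 5 of its 12 probes that were above background on all 6 arrays gave 0.24 to 1.1, all higher in 250D, and the dimmer ones reached -0.36. The other clock genes lay between -0.44 and 0.44. Of 14 clock genes, 0 were called, 2 lay wholly above 50ND (14.3%, against 14.7% of all genes), which were Clk and cwo, a repressor of Clk targets, at 0.44. One lay wholly below (7.14%, against 20.2%), and the list median was 0.17, against -0.05 over all genes. per itself had 4.94, 5.37 and 6.05 in 250D and 5.52, 5.34 and 5.59 in 50ND, a difference of -0.03 with a 95% interval of -0.94 to 0.87. tws, a phosphatase subunit that acts on PER, differed by -0.44 (adjusted p = 0.913).

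Other genes of biogenic amine synthesis lay less far apart. Trh, tryptophan hydroxylase of the serotonin pathway, had 5.56, 5.85 and 5.11 in 250D and 4.85, 4.75 and 5.0 in 50ND, a log2 fold change of 0.64 (adjusted p = 0.781) with no overlap. Of the 10 genes of amines and pigmentation, 0 were called in the full fit, 3 lay wholly above 50ND (30%, against 14.7% of all genes) and 1 wholly below (10%, against 20.2%), and their median was 0.29, 0.34 above the median of all genes and 0.21 above it with spike-in scaling.

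Eip71CD, a methionine sulfoxide reductase that repairs oxidized proteins and is induced by ecdysone in D. melanogaster, had the smallest p of the full fit. It stood at 9.02, 8.35 and 10.20 in 250D and at 7.68, 7.54 and 8.08 in 50ND. All 250D arrays were higher, and replicate c was the highest by more than 1 log2. Its difference was 1.42 log2 with a standard error of 0.37, and the adjusted p was 0.125 in the full fit, 0.0558 in the fit without 7ND replicate c, and 0.0198 in the full fit with 250D replicate b left out (log2 fold change 1.84). Without 250D replicate c the log2 fold change was 0.92 and was not called. All 8 of its probes were higher in 250D, and the other 7 gave 0.63 to 1.44. Sod, superoxide dismutase, had 15.36, 15.19 and 14.79 in 250D and 14.70, 14.79 and 14.55 in 50ND, so that 250D replicate c nearly touched 50ND replicate b (log2 fold change 0.44, adjusted p = 0.818). The other genes of cold and oxidative stress overlapped or differed little. P5cr, of proline synthesis, differed by 0.01 (95% interval -0.43 to 0.44), regucalcin, a calcium-binding cold acclimation gene, by -0.15 (-0.97 to 0.67), and Fst, a cold-induced gene, by 0.35 (-0.81 to 1.52). The P5cr value and interval hold for its brightest probe only. All 6 P5cr probes were above background on all 6 arrays, and the others gave -0.24 to 2.1. Fst rested on 1 array, with 7.27, 7.69 and 10.05 in 250D and 8.37, 7.60 and 7.99 in 50ND, and it was -0.50 without 250D replicate c.

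Chaperones lay on both sides. Of 26 heat shock and chaperone genes 0 were called, but 11 lay wholly below 50ND, 42.3% of the list against 20.2% of all genes, and 3 wholly above, 11.5% against 14.7%. Their median was -0.30, -0.25 relative to the median of all genes and -0.30 relative to it with spike-in scaling. In the fit without 7ND replicate c, 12 of the 26 (46.2%, against 19.7% of all genes) had an unadjusted p under 0.05, 9 lower and 3 higher in 250D. Such a share was not particular to chaperones. It was 44.4% of the 9 genes of sex determination and courtship (3 higher and 1 lower) and 30.8% of the insulin and kinase genes. Among the lower chaperones were members of the Hsp70, Hsp40 and Hsp90 families, which fold proteins in the cytosol. DnaJ-1, an Hsp40 co-chaperone, had 11.02, 11.11 and 10.68 in 250D and 11.92, 11.63 and 11.61 in 50ND (log2 fold change -0.78, standard error 0.30, adjusted p = 0.574). Droj2, another Hsp40, had 12.55, 12.57 and 12.37 in 250D and 13.26, 13.45 and 13.16 in 50ND (-0.79, standard error 0.33, adjusted p = 0.576). All 10 probes of DnaJ-1 but only 6 of the 8 of Droj2 were lower in 250D, and other Droj2 probes reached 0.41. With 7ND replicate c left out, the limma adjusted p was 0.0851 for DnaJ-1 and 0.21 for Droj2. It was 0.0621 for CG14650, a gene of this list named after its values were seen, which differed by -0.64 in the full fit (adjusted p = 0.913).

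Hsc70-4, the main constitutive Hsp70, had 15.00, 15.02 and 15.13 in 250D and 15.77, 15.65 and 15.36 in 50ND (log2 fold change -0.55, standard error 0.23, adjusted p = 0.576). All 12 of its probes were lower in 250D. Relative to the median of all genes its difference was -0.50, but -0.29 with spike-in scaling. Hsp68, an inducible Hsp70, and Hsp83, the fly Hsp90, which are named here after their values were seen, had log2 fold changes of -0.64 and -0.53 (adjusted p = 0.567 and 0.781) with no overlap. All 10 probes of Hsp83 and 12 of the 14 probes of Hsp68 were lower in 250D. Hop, the adaptor between Hsp70 and Hsp90, differed by -0.01 with a wide 95% interval of -1.54 to 1.51. Its standard error was 0.73 with 7ND replicate c in the fit and 0.19 without it.

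On the higher side stood a pair of small heat shock genes. Hsp20 had 10.04, 9.55 and 9.60 in 250D and 7.75, 8.06 and 8.94 in 50ND, which is 1.48 log2 higher with a standard error of 0.55 (adjusted p = 0.574). l(2)efl, a small heat shock protein of the alpha-crystallin type, had 10.59, 9.87 and 9.91 in 250D and 8.51, 8.58 and 9.53 in 50ND, which is 1.25 log2 higher with a standard error of 0.34 (adjusted p = 0.125, and 0.0558 with 7ND replicate c left out). In both genes 50ND replicate c was the 50ND array nearest to 250D. All 6 l(2)efl probes and 3 of the 4 Hsp20 probes were higher in 250D. Hsc70-2, an Hsp70 cognate also named after its values were seen, was higher by 0.68 (adjusted p = 0.576). Only 8 of its 12 probes were higher in 250D, and the others reached -0.66. The small heat shock genes that fly ovaries are known to hold, Hsp23 and Hsp26, were near the top of the scale in both groups. Hsp23 had 16.34, 16.38 and 14.72 in 250D and 16.62, 16.54 and 16.46 in 50ND, so 250D replicate c set the difference of -0.73 (95% interval -2.30 to 0.84). Hsp26 had 17.35, 17.36 and 16.10 in 250D and 17.36 on each 50ND array. Quantile normalization gives the brightest spots of every array the same values, up to 17.44, so the level of Hsp26 has a ceiling. None of its spots was flagged as saturated by the scanner, and without normalization between arrays its difference was -0.30, against -0.43 with it.

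Transcripts of the ovary and germ line lay slightly lower in 250D. All 8 genes of that list had lower means, from -0.52 to -0.19, and the median was -0.37, -0.32 relative to all genes and -0.46 relative to them with spike-in scaling. None was called, 5 lay wholly below 50ND (62.5%, against 20.2% of all genes) and 0 wholly above (0%, against 14.7%). In the fit without 7ND replicate c, 0 of the 8 had an unadjusted p under 0.05, against 19.7% of all genes. Fmr1, an RNA-binding translational repressor used in oogenesis, had 8.16, 8.13 and 7.89 in 250D and 8.89, 8.60 and 8.23 in 50ND (adjusted p = 0.913). Histone_H3.3A, a replication-independent histone, had 13.37, 13.33 and 12.93 in 250D and 13.56, 13.96 and 13.49 in 50ND. Neither gene overlapped between the groups, though by a small margin. Prp5, a splicing helicase, differed by -0.48 and Trf, a TBP-related factor, by -0.37. The mean level of the 3 maternal markers was 10.29 to 10.60 in 250D and 10.72 to 11.00 in 50ND, and its part in the other differences was not tested.

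**Figure D3:**
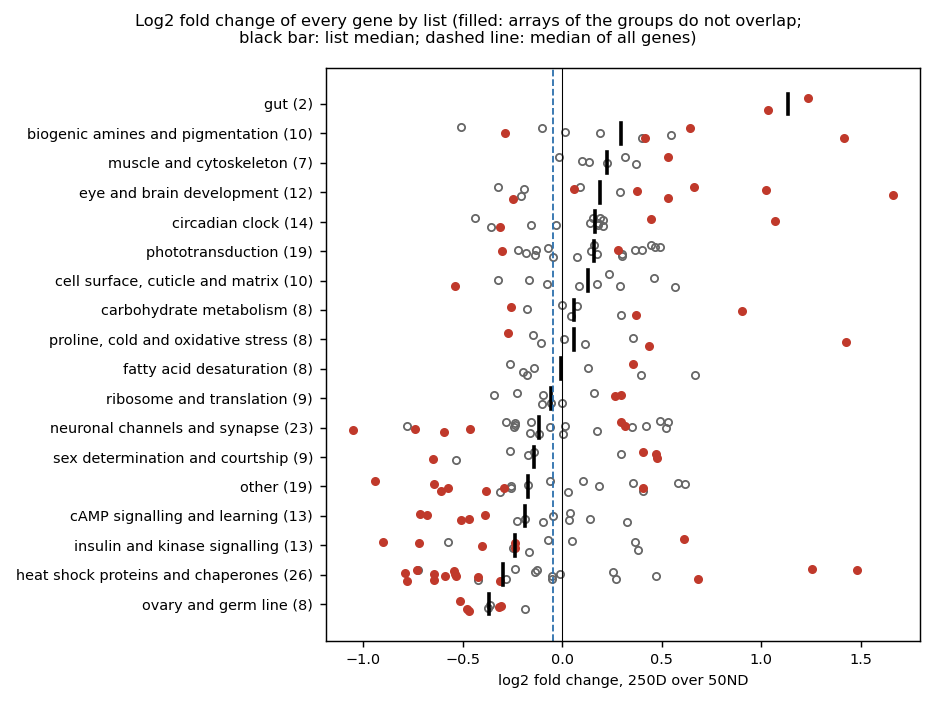
Log2 fold change of 250D over 50ND (x axis) for each of the 218 genes, grouped by list with its number of genes (y axis). Filled points are the 76 genes whose arrays do not overlap, black bars are list medians, from -0.37 for ovary and germ line to 1.13 for the 2 gut genes, and the dashed line is the median of all genes, -0.05, which is -0.88 with spike-in scaling, where the medians of all lists but gut are below 0.

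Both gut genes were higher. Jon25Bi, a serine endopeptidase of digestion, had 16.54, 16.54 and 16.46 in 250D and 15.36, 14.86 and 16.22 in 50ND. The 250D arrays were nearly equal and 50ND replicate c came close to them, so the difference of 1.03 log2 with a standard error of 0.46 (adjusted p = 0.602) was 0.33 on the slide that held 50ND replicate c and 1.18 and 1.60 on the other slides. All 10 probes were higher in 250D. Jon25Bi stood near the top of the quantile-normalized scale, and without normalization between arrays its difference was 1.30 log2. ninaD, a scavenger receptor for the uptake of carotenoids, had 7.65, 6.55 and 7.66 in 250D and 6.11, 5.96 and 6.09 in 50ND, 1.23 log2 higher with a standard error of 0.60 (adjusted p = 0.707). Adh, alcohol dehydrogenase, stood out among 8 carbohydrate genes, with 13.82, 13.95 and 13.50 in 250D and 12.62, 13.12 and 12.82 in 50ND (log2 fold change 0.90, adjusted p = 0.781). The other carbohydrate genes lay between -0.26 and 0.37. Pgm, phosphoglucomutase, at 0.37, was higher in 250D only on its brightest probe, since the other 7 of its 8 probes were lower.

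Of 12 genes of eye and brain development 6 lay wholly above 50ND (50%, against 14.7% of all genes), 1 wholly below (8.33%, against 20.2%), and 0 were called. Their median was 0.19, and 0.19 above that of all genes with spike-in scaling. disco, a transcription factor of visual system wiring, had 5.08, 4.05 and 3.69 in 250D and 2.38, 2.98 and 2.46 in 50ND. It was not well above background on any 50ND array, so that it is only given as at least 1.43-fold higher in 250D (adjusted p = 0.574), and with normexp background correction the difference was 0.27 log2. Dr, a homeodomain factor, had 7.01, 7.18 and 7.99 in 250D and 6.24, 6.20 and 6.67 in 50ND (log2 fold change 1.02, adjusted p = 0.818). cpo, an RNA-binding protein whose variants go with diapause in D. melanogaster, had 7.51, 7.32 and 8.15 in 250D and 6.99, 7.09 and 6.94 in 50ND (0.66, standard error 0.26, adjusted p = 0.576), and 23 of its 26 probes were higher in 250D. 250D replicate c was the highest array for Dr and cpo.

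Phototransduction differed less. None of 19 genes was called, 1 lay wholly above 50ND and 1 wholly below (5.26% each, against 14.7% and 20.2% of all genes), and the list ran between -0.30 and 0.49. Its highest values belonged to the ultraviolet opsins Rh4 (0.49, adjusted p = 0.913) and Rh3 (0.44, adjusted p = 0.913), which overlapped between the groups. The mean level of the 11 photoreceptor markers was 8.97 to 9.71 in 250D and 8.83 to 9.52 in 50ND and was highest in replicate c of either group. The mean of the 7 neuron markers was 5.63 to 6.16 in 250D, highest in replicate c, and 5.44 to 5.73 in 50ND. Their part in the differences of nervous system genes was not tested.

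**Figure D4:**
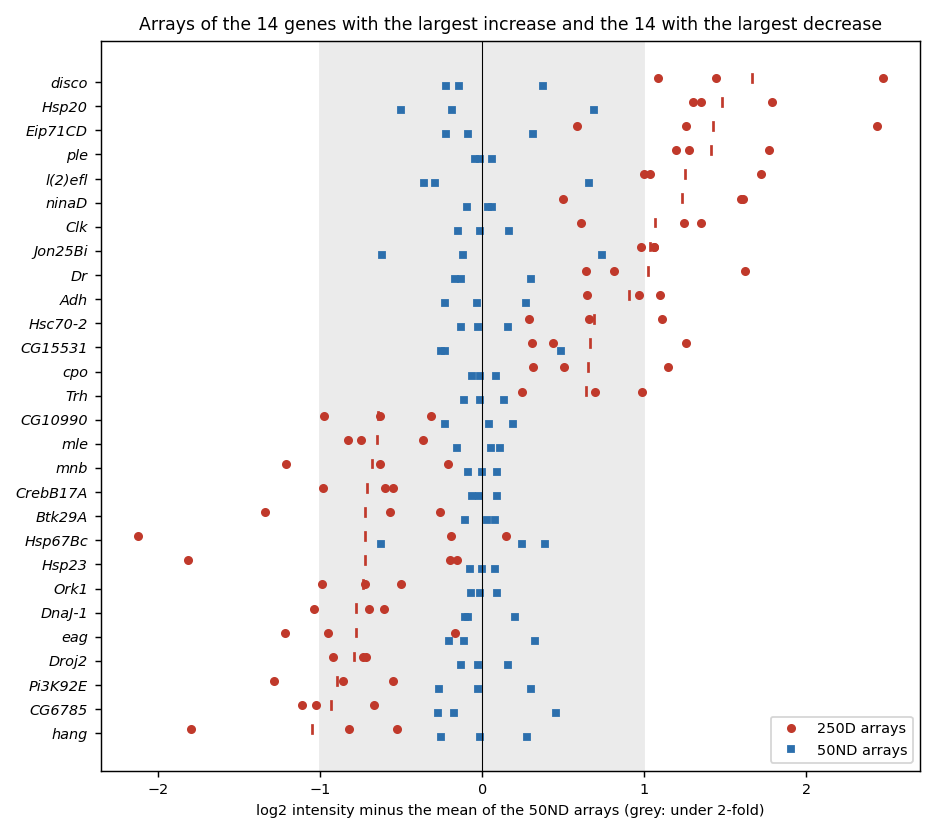
Log2 intensity of each array minus the mean of the 50ND arrays (x axis) for the 28 genes at the 2 ends of the fold change order, 14 at either end (y axis), with 250D arrays as red points above 50ND arrays as blue squares, a red bar for the 250D mean and grey shading for differences under 2-fold. Hsp23 and Hsp67Bc each have 1 250D array far to the left, which is replicate c, while ple and DnaJ-1 are separated on all arrays.

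hang, a zinc finger protein of ethanol tolerance, was the only gene with a mean over 2-fold lower, with 5.46, 5.16 and 4.19 in 250D and 5.73, 6.26 and 5.97 in 50ND (a difference of -1.05 log2 with a standard error of 0.50, adjusted p = 0.707). It was a dim gene, and normexp background correction gave -0.40, as it gave -0.48 for CG6785 and -0.14 for Pi3K92E. Of the higher genes named above, it gave 0.62 for Clk, 0.78 for ninaD, 0.66 for Dr and 0.22 for Trh. CG6785, an uncharacterized gene, had 5.64, 5.73 and 6.09 in 250D and 6.58, 6.48 and 7.21 in 50ND (-0.94, adjusted p = 0.707), and its second probe, which was not above background on all 6 arrays, gave 0.12. Pi3K92E, the catalytic subunit of PI3 kinase, differed by -0.90 on a probe that was near background on all but 1 of the 250D arrays (adjusted p = 0.913), and Btk29A, a tyrosine kinase needed in oogenesis, by -0.72 (adjusted p = 0.818). CrebB17A, a CREB transcription factor, differed by -0.71, but 4 of its 8 probes went the other way. The cGMP-dependent kinase gene for had 8.59, 8.30 and 8.30 in 250D and 8.94, 8.96 and 8.83 in 50ND (-0.51, standard error 0.23, adjusted p = 0.602). Ork1, a potassium leak channel, differed by -0.74, mle, a helicase of dosage compensation, by -0.65, and CG10990 by -0.64, each with 250D wholly below 50ND and an adjusted p of 0.781 or more. CG9934 differed by -0.61, also wholly below (adjusted p = 0.913, and 0.0582 with 7ND replicate c left out). Of 13 insulin and kinase genes 5 lay wholly below 50ND (38.5%, against 20.2% of all genes) and 1 wholly above (7.69%, against 14.7%). Of 13 cAMP and learning genes 5 lay wholly below (38.5%, against 20.2%) and 0 wholly above (0%, against 14.7%).

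Structural and lipid genes showed no call. Act_42A, an actin, differed by 0.32 (95% interval -0.27 to 0.90), Mhc, myosin heavy chain, by 0.13 (-0.54 to 0.81) and sls, a titin-like protein of muscle, by 0.37 (-0.99 to 1.73). Mhc had 14.90, 14.14 and 14.98 in 250D and 14.44, 14.21 and 14.97 in 50ND, with complete overlap. The 7 genes of muscle and cytoskeleton ran from -0.02 to 0.53, and 1 lay wholly above 50ND (14.3%, against 14.7% of all genes). The 8 genes of fatty acid desaturation ran from -0.26 to 0.67, 4 with a higher and 4 with a lower mean in 250D. Among them CG8630 differed by -0.18, CG9743 by -0.20 and Cyt-b5-r by 0.13. CG15531, an acyl-CoA desaturase gene, had 12.09, 11.96 and 12.91 in 250D and 11.42, 11.40 and 12.14 in 50ND (0.67, 95% interval -0.30 to 1.64). CG17928, a cytochrome b5-related gene, differed by 0.40 (-0.57 to 1.37) and CG9747, an acyl-CoA desaturase, by 0.35 (-0.61 to 1.32). CG9747 was the only one of the 8 without overlap, wholly above 50ND (12.5%, against 14.7% of all genes). The 9 genes of ribosome and translation ran from -0.34 to 0.29, and Thor, the 4E-BP repressor of translation, stood at 0.16 (-0.42 to 0.74). drpr, a receptor for the engulfment of dying cells, differed by 0.17 (-0.33 to 0.68).

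The levels of these genes in the other groups place 250D and 50ND, and 150ND is a further group with mature ovaries. The comparisons share the 250D arrays, so each has its own values only, and between 250D and 150ND 10.6% of the 218 genes were called (4.13% higher and 6.42% lower in 250D). Between 250D and 220D, overwintered females sampled earlier in spring with ovaries still free of yolk, 21.6% were called (8.72% higher and 12.8% lower). Between 250D and 50D, diapausing females of autumn, 21.6% were called (7.8% higher and 13.8% lower), among them Adh (log2 fold change 3.62, adjusted p = 1.42e-05) and CG9747 (-4.17, adjusted p = 2.47e-06). Adh averaged 13.76 in 250D, against 12.85 in 50ND, 10.50 in 220D and 7.08 in 150ND, and it was called higher in 250D than in 220D (log2 fold change 3.26, adjusted p = 4.43e-05) and 150ND (6.68, adjusted p = 4.57e-09). Jon25Bi was called higher than in 220D (3.11, adjusted p = 5.4e-05) and 150ND (2.80, adjusted p = 0.000191), and ninaD was called higher than in 220D (2.09, adjusted p = 0.0159). In 150ND ninaD was not above background on any array, so it was at least 12.9-fold higher in 250D (adjusted p = 2.81e-05). Its call against 220D was lost without 250D replicate a or c (adjusted p = 0.0686 and 0.0525). In Adh, Jon25Bi and ninaD the mean of 250D stood above that of 50ND, and both stood above 220D and 150ND. A high level was not confined to mature females, since Adh averaged 13.55 in 7D, young females at the start of diapause.

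Other genes had means far from that of 220D in both 250D and 50ND. The 150ND females, also with mature ovaries, did not share this in all of these genes. Hsp26 averaged 16.93 in 250D and 17.36 in 50ND, values at the ceiling described above, and 16.83 in 150ND, against 10.18 in 220D. Its log2 fold change of 250D over 220D was 6.75 (adjusted p = 8.57e-06), and 7.18 without normalization between arrays. CG9747 averaged 11.10 in 250D and 10.74 in 50ND, against 13.39 in 220D (-2.29, adjusted p = 0.00106) and 14.78 in 150ND (-3.68, adjusted p = 1.57e-05). per averaged 5.45 in 250D and 5.49 in 50ND, against 8.05 in 220D (-2.60, adjusted p = 0.000174) and 6.92 in 150ND (-1.47, adjusted p = 0.0288). Fst was likewise called lower in 250D than in 220D (-2.22, adjusted p = 0.00651) and 150ND (-2.12, adjusted p = 0.0126). Both calls against 150ND were lost when any of several arrays was left out, for example 150ND replicate c (adjusted p = 0.0921 for per and 0.0692 for Fst) or 250D replicate a (0.168 and 0.111), and so was that of Fst against 220D without 250D replicate a (0.0543). Both calls against 150ND were also lost without normalization between arrays (limma adjusted p = 0.218 for per and 0.0661 for Fst). With the mean of all probes per gave -0.81, under the 2-fold minimum, and Fst -1.07 (adjusted p = 0.0711). The per call was lost with spike-in scaling (adjusted p = 0.144) and normexp background correction (0.086) too. The second probe of Fst gave 0.35 against 150ND and -0.86 against 220D (adjusted p = 0.0504), neither called. CG6785 averaged 5.82 in 250D and 6.76 in 50ND, against 9.52 in 220D (-3.71, adjusted p = 8.57e-06) and 8.86 in 150ND (-3.04, adjusted p = 6.77e-05), and its second probe gave -0.51 and -0.58 with neither called. In 7D, which were diapausing, CG6785 averaged 5.12, below both 250D and 50ND.

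ple averaged 8.17 in 250D, 7.14 in 220D and 7.32 in 150ND, and 6.75 in 50ND, and neither 250D against 220D (1.03, adjusted p = 0.0595) nor 250D against 150ND (0.84, adjusted p = 0.207) was called in the full fit. The direction against these groups depended on the probe, since the second ple probe gave -0.78 against 220D and -1.22 against 150ND, whereas against 50ND all probes had 250D higher. The mean of all ple probes gave -1.32 against 150ND (limma adjusted p = 0.0125), which was called lower in 250D. Against 220D that mean gave -0.86 (adjusted p = 0.074) and was not called. Without 7ND replicate c, ple was called against 220D (adjusted p = 0.00112). Clk averaged 7.10 in 250D, 6.23 in 220D and 6.48 in 150ND, and 6.03 in 50ND, with an adjusted p of 0.179 for 250D against 220D and 0.51 against 150ND, and the mean of all Clk probes gave -0.19 against 220D. Eip71CD averaged 9.19 in 250D, 8.52 in 220D and 6.70 in 150ND, and 7.77 in 50ND, and was called higher than in 150ND (2.50, adjusted p = 6.77e-05) but not than in 220D (0.67, adjusted p = 0.195). For Dr, 250D at 7.39 lay above 50ND at 6.37 and below 220D at 8.61 and 150ND at 9.78 (-2.39 against 150ND, adjusted p = 0.0098, but 0.0542 without 150ND replicate c and 0.053 without 250D replicate a). Against 220D Dr was not called in the full fit (-1.22, limma adjusted p = 0.144) but was without 7ND replicate c (-1.25, adjusted p = 0.00464). cpo at 7.66 in 250D lay between 7.00 in 50ND and 8.57 in 220D (-0.91, adjusted p = 0.0159, under the 2-fold minimum).

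**Figure D5:**
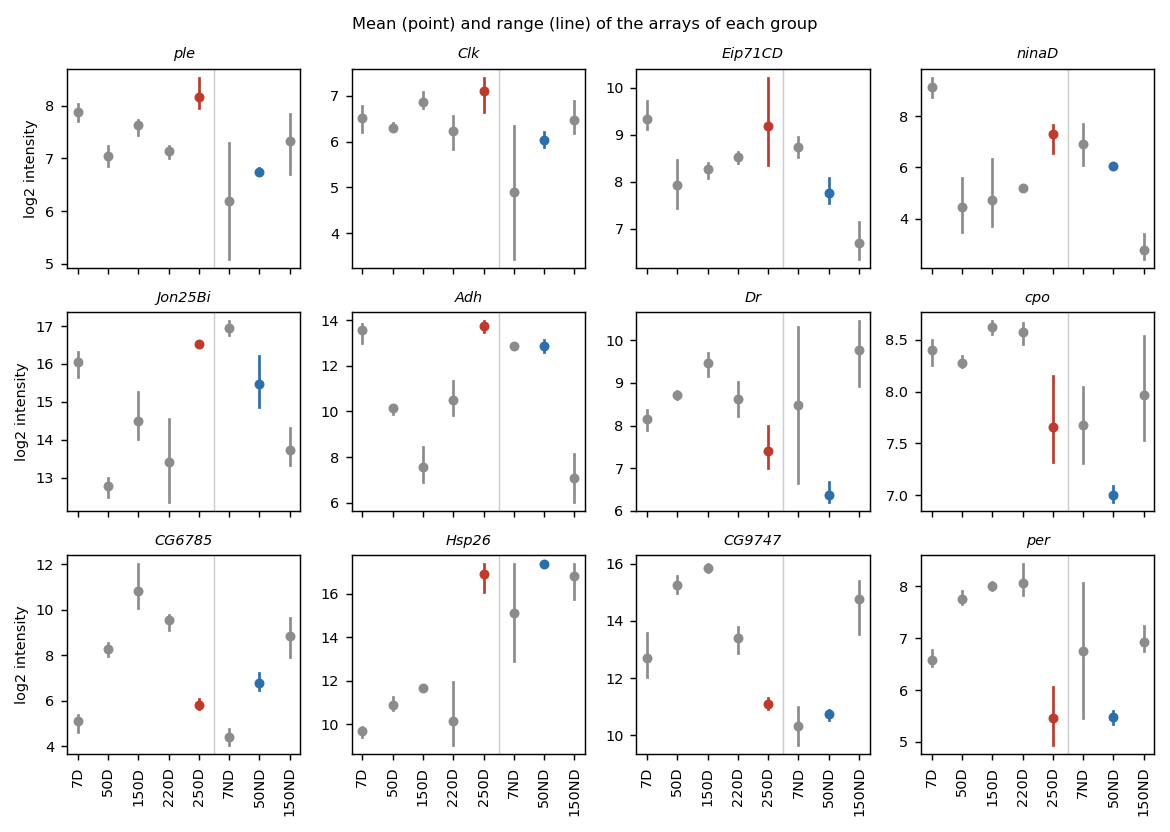
Mean (point) and range (line) of log2 intensity (y axes) of 12 genes in the 8 groups (x axes), with the diapausing stages in order of age up to 250D (red) left of the non-diapausing groups, of which 50ND is blue. In CG9747 and per the means of 250D and 50ND lie within 0.5 of each other and apart from 220D, and Hsp26 reaches the ceiling of the scale in both, while in ple, Clk and Eip71CD 250D has the higher mean of the 2 groups (7ND holds the array that stood apart).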

How the data were processed

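Total RNA of 2 pooled females per array was labelled with Cy3 and hybridized with spike-in controls to a custom array. The authors scanned the arrays and deposited Feature Extraction 10.7.1.1 files, which hold per spot the background-subtracted intensity, the median spot and background intensity and flags of 0 or 1. A table of the authors' quantile-normalized intensity, made with limma, was deposited too.

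Here log2 intensities of 14800 gene spots were brought to 1 distribution across the 23 arrays by quantiles. Spots with an outlier mark were dropped before the mean over the 8 spots of a probe (43 times all 8 had it and stayed). Of 1850 probes, the brightest of each gene was used, forward or reverse complement. Probes counted as above background on an array where over 50% of their spots were flagged so. The 8 groups entered 1 limma fit (version 3.58.1 under R 4.3.3), and p was adjusted by Benjamini-Hochberg. Where every array of a group was near background, the bound sets the mean of the brighter group against the dim group's mean of, per array, the higher of its own value and the lowest value above background. Simulated data were used to test the procedure.

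Named genes were drawn from up to 4 of each list with the largest difference, the gut and desaturation lists, and Act_42A, Mhc and sls of the muscle list. Genes the paper names for 250D or for all of diapause were added. Not every gene so drawn is given, and some genes were named later, as said where they stand. The lists put each gene in 1 functional group. Members and lists were chosen with earlier results of these data known. Alternatives were 3 other scalings (75th percentile, none, 7 spike-in probes), the authors' table, normexp (offset 50), the mean of all probes or the second probe, a dim-probe filter (above background on at least 3 of 6 arrays), no minimum fold, slide or replicate letter as a block, the 6 arrays alone, 7ND replicate c left out, and each array left out. Deviations from the group means correlated at -0.321, 0.49 and 0.317 for arrays of the same replicate letter and at 0.336, -0.439 and 0.116 for arrays of the same slide. Deviations from a mean of 3 arrays depend on each other, so these values cannot decide whether letters or slides pair the arrays. The labels name 3 biological replicates without saying more.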

Additional observations from a re-analysis of the deposited data

How the results depend on the processing

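The count of genes called higher in 250D was 0 in the full fit, 1 with 75th-percentile scaling or with only the 6 arrays (ple in both), and 2 with the authors' table or without 7ND replicate c (ple and Clk in both). Leaving out 1 of the 6 arrays gave 0 to 1 (Eip71CD without 250D replicate b), and with 7ND replicate c also out 1 to 2, with ple called each time and Clk only without 250D replicate c. The joint settings and the fit without 150ND replicate c were chosen after the data were seen. The count of genes called lower was 0, except 11 with spike-in scaling and 73 with spike-in scaling without 7ND replicate c. Spike-in scaling set the median of all genes at -0.88 (12 genes higher and 206 lower) and 75th-percentile scaling at 0.13 (129 and 89), against -0.05 (103 and 115) in the full fit. Both scalings add 1 constant per array, so relative to that median they give the same values, with 49 of 52 genes keeping the sign of the full fit. The replicate block and the slide block left both counts at 0. Against 50ND, direction turned for genes that were not called. With spike-in scaling the log2 fold change was -0.34 for cpo, -0.40 for CG15531 and Act_42A, -0.21 for Trh, -0.98 for P5cr, -0.59 for Mhc, -0.65 for sls, -0.78 for Thor, -0.84 for drpr, -0.70 for Fst, -0.63 for CG17928, -0.61 for CG9747, -0.54 for Rh3, -0.47 for Rh4, -0.23 for Sod, -0.32 for Pgm, -0.51 for cwo and -0.30 for Hsc70-2. The second probe gave 0.12 for CG6785, -0.18 for Fst, -0.32 for Rh4 and -0.24 for Pgm, and the mean of all probes -0.01 for sls, 0.22 for per and -0.09 for Pgm. The 75th percentile gave 0.01 for Hop and 0.05 for per, normexp 0.0 for per, no scaling -0.14 and the authors' table -0.02 for P5cr. With 1 array left out P5cr ran from -0.09 to 0.17, Hop from -0.11 to 0.07, Mhc from -0.03 to 0.40, sls from -0.06 to 0.74, per from -0.33 to 0.22, regucalcin from -0.23 to 0.01, Fst from -0.50 to 0.89 and CG17928 from -0.04 to 0.74. Against 150ND, 220D and 50D ple gave -1.32, -0.86 and -0.69 with the mean of all probes and -1.22, -0.78 and -0.66 with the second probe. Of these values only -1.32 was called (limma adjusted p = 0.0125). Clk gave -0.19 against 220D with the mean of all probes and -0.04 against 50D with spike-in scaling. The second probe gave 0.35 for Fst against 150ND and 0.03 for CG6785 against 50D, and Hsp26 against 150ND ran from -0.42 (without 150ND replicate c) to 0.52 with 1 array left out. The causes were not tested.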
